A study of Homo sapiens with 4 samples.

Results

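Chromatin accessibility was examined at 9 genes that encode chromatin modifiers and are recurrently mutated in B cell lymphoma: KMT2D, KMT2C, CREBBP, EP300, TET2, ARID1A, ARID1B, SMARCA4 and SETD2. Their regions were chosen by position. An interval, meaning a merged ATAC-seq peak on build hg38, belongs to a gene if its midpoint lies in the gene body. Failing that, it goes to whichever protein-coding gene ends nearest, up to 100 kb away. This gave 72 of the 73135 intervals, and all 72 passed the filter on low counts. ARID1B had 22 of them, CREBBP 13, TET2 10, SMARCA4 8, KMT2C 7, KMT2D 4, SETD2 4, and EP300 and ARID1A 2 each. Position alone says nothing of the gene that an interval acts on.

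The study silenced IRF4, a transcription factor on which lymphoma cells of the activated B cell-like (ABC) type depend, in TMD8, an established cell line of that type. ATAC-seq, which reads out open chromatin by transposase insertion, was done on 2 shIRF4 libraries (short hairpin RNA against IRF4) and 2 control libraries (scrambled hairpin). All 4 libraries come from this line, and the labels give no time after silencing, no number of hairpins and no level of IRF4. Nothing in the labels says that libraries of a group came from separate cultures, so p-values measure the spread between these libraries, which may be technical.

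The proteins act on histones, DNA and nucleosomes. KMT2D and KMT2C place monomethyl marks on histone H3 lysine 4 at enhancers, and CREBBP and EP300 acetylate histones there. TET2 oxidises methylcytosine, the first step of DNA demethylation. SMARCA4 is the ATPase of the SWI/SNF nucleosome remodeller, in which ARID1A and ARID1B are alternative DNA-binding subunits. SETD2 places the trimethyl mark on histone H3 lysine 36 along transcribed genes. In germinal centre lymphomas KMT2D and CREBBP are among the most often mutated genes, and their loss is known to weaken enhancers of B cell genes.

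The total count was 17954924 and 9112860 in the shIRF4 libraries and 12152153 and 13609123 in the control libraries. Gene-end intervals, whose midpoint lies within 1 kb of either end of a gene, were found at 6 of 8 B cell marker genes. Their summed level was 428 to 470 CPM (counts scaled to the effective library size) in shIRF4 and 459 to 462 CPM in control. Such intervals were found at 2 of 8 T and NK cell genes (33.0 to 33.5 CPM in shIRF4, 34.2 to 39.6 CPM in control), at 1 of 6 myeloid genes (8.29 to 8.58 CPM in shIRF4, 8.89 to 9.52 CPM in control) and at 3 of 7 epithelial and fibroblast genes (17.3 to 17.9 CPM in shIRF4, 18.0 to 18.7 CPM in control).

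In shIRF4 cells no change was detected at the starts of these genes, while single sites inside and around 7 of the genes changed. The whole series showed a like contrast, with 8.66% of intervals over gene starts called and 25.0% of those off starts. Of the 72 intervals, 10 were lower in shIRF4, 4 were higher and 58 were not called. The 14 called intervals make up 19.4%, beside 22.8% of all 73028 intervals tested in the series, a share near that of the genome at large. Lower calls made up 13.9% of the 72, beside 15.5% of all intervals, and higher calls 5.56%, beside 7.26%. The median log2 fold change was 0.00 over the 72 intervals and 0.01 over all intervals tested. A call means an adjusted p under 0.05 (edgeR quasi-likelihood F-test, Benjamini-Hochberg over all intervals), and "lower", "higher", "fell" and "rose" are used of called intervals, in shIRF4 against control. DESeq2 called 4 lower and 1 higher, beside 6.26% of all intervals, and a test against a 1.5-fold change called 3 lower and 1 higher, beside 3.95%. Scaling by library totals alone gave a different split: 7 intervals were lower and 8 higher, and over the whole series the share of lower among called intervals moved to 58.0%, beside 68.1% with the scaling used here.

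**Figure D1:**
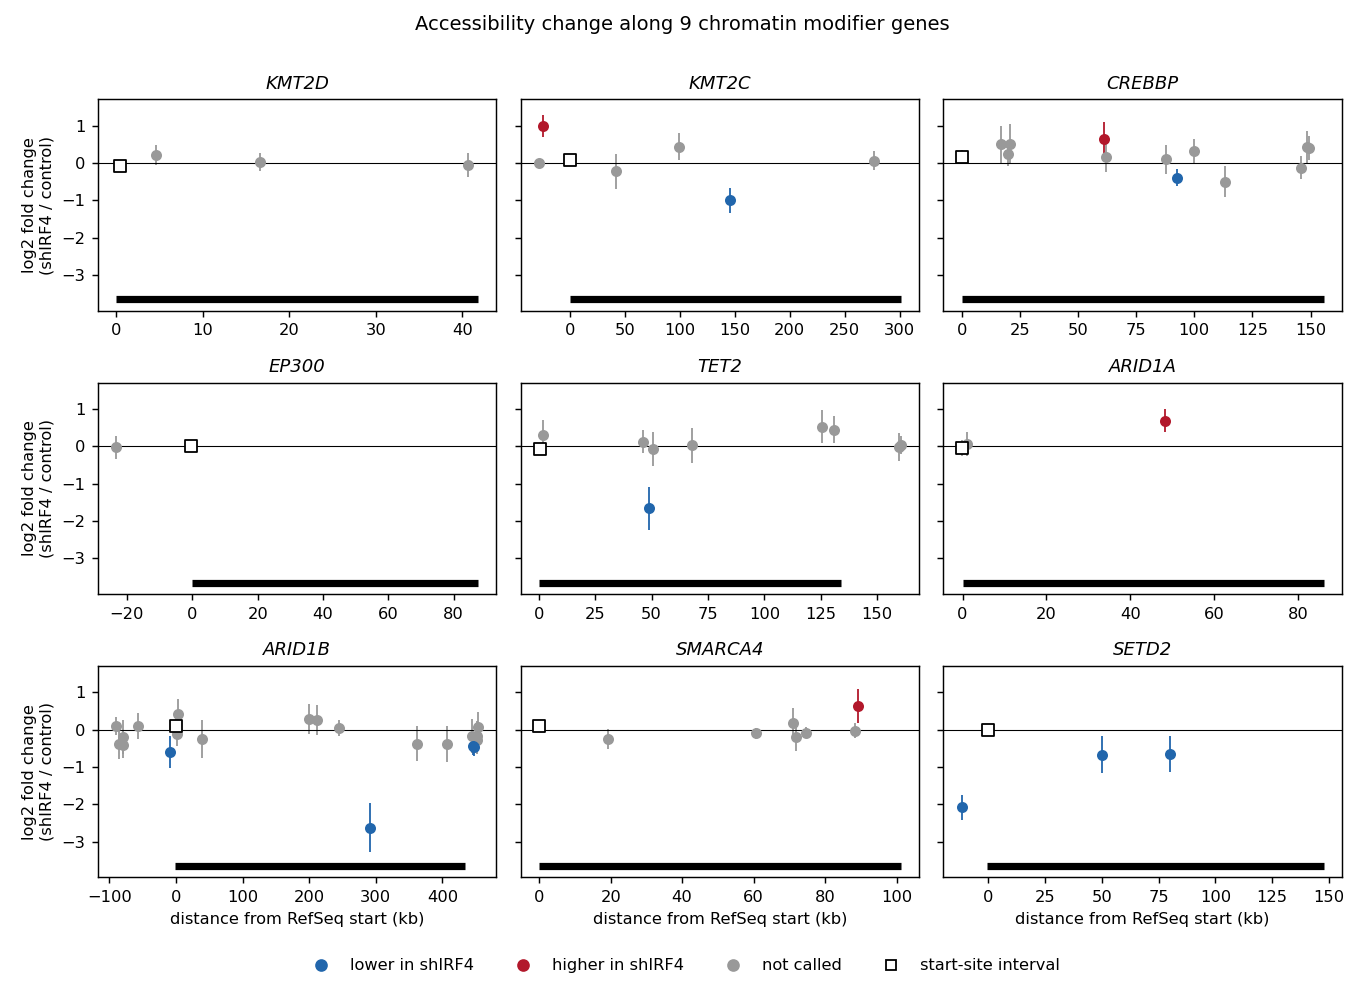
Log2 fold change (shIRF4 over control) of each interval against the distance of its midpoint from the RefSeq start of its gene in kb, positive in the direction of transcription, with 95% intervals. The black bar marks the gene body and white squares the start-site intervals, which lie between -0.07 and 0.16, while the called intervals reach -2.62 in ARID1B and -2.07 upstream of SETD2.

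Each gene had 1 interval over a RefSeq start site. For ARID1A that interval is assigned by the rule to the overlapping locus LOC124900417. It is shown here beside the 8 others and was added after its values were seen. The sequences of 4 promoters are given because these genes hold a change, away from the start, that was called in all 11 alternatives. They are the 250 bases upstream of the start, 5′ to 3′ on the gene's strand, from RefSeq on GRCh38.p14, the assembly that hg38 names. Capitals mark CG dinucleotides, where most DNA methylation of mammals lies.
ARID1B (chr6:156777128-156777377, plus strand): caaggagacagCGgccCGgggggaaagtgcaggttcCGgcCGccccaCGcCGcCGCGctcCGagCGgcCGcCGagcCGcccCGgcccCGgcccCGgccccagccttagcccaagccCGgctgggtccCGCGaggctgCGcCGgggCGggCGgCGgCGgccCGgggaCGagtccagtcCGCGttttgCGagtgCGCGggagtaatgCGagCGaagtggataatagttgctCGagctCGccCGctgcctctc
SETD2 (chr3:47164114-47164363, minus strand): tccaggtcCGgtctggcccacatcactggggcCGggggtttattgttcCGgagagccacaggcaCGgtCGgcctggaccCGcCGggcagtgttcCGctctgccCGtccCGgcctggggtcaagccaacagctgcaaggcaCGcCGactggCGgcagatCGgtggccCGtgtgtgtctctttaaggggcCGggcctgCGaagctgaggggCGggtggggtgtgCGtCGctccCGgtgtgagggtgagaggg
KMT2C (chr7:152436004-152436253, minus strand): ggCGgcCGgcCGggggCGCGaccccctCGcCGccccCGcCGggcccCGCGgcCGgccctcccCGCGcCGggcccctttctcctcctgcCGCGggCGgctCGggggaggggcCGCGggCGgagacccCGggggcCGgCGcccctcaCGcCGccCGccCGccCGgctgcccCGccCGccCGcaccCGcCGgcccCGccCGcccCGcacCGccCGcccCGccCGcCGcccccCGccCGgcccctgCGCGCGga
TET2 (chr4:105145625-105145874, plus strand): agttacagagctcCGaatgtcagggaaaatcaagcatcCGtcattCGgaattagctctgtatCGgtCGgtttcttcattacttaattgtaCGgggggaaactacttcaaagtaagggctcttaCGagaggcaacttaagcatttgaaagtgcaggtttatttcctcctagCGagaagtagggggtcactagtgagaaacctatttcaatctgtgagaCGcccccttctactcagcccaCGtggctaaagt

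The 4 promoters differ in composition. KMT2C has 92.0% G or C and 48 CG dinucleotides, ARID1B 76.0% and 37, SETD2 69.6% and 21, and TET2 45.6% and 10, beside medians of 62.0% and 16 over 22198 promoter windows of protein-coding genes. Over the 9 promoters G or C content had a median of 76.0%. Matches were searched on both strands to GGAA and GAAA separated by any 2 bases (a composite site of ETS factors and IRF4), to GAAA and GAAA separated by any 2 bases (the core of the interferon-stimulated response element) and to TGANTCA (AP-1). The first 2 can share letters with each other. None of the 13 promoter windows of the 9 genes held any of them, and 2.18%, 2.71% and 5.36% of all windows did in that order. The windows end at the start site, so motifs elsewhere in an interval were not searched, and the sequences of the changed sites were not analysed here.

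Accessibility at the starts did not change detectably. Of the 9 start-site intervals 0 were called by edgeR, 0 had an unadjusted p under 0.05 and 0 were called by DESeq2. Among all 9857 start-site intervals of protein-coding genes edgeR called 8.66%, and for 9 intervals 0 called lies near that share. EP300 had 60.9 and 65.1 CPM in the shIRF4 libraries and 60.2 and 63.9 CPM in the control libraries. KMT2C had 57.6 and 59.1 CPM in shIRF4 and 53.7 and 57.4 CPM in control. The EP300 groups overlapped, and the KMT2C groups lay next to each other. SETD2 had 46.0 and 47.9 CPM in shIRF4, inside which both control values of 47.3 and 46.7 CPM fell. TET2 had 47.1 and 43.0 CPM in shIRF4 and 48.2 and 47.1 CPM in control. SMARCA4 had 42.0 and 44.7 CPM in shIRF4 and 40.0 and 39.8 CPM in control.

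The remaining starts were less deeply covered. KMT2D had 31.3 and 32.0 CPM in shIRF4 and 33.6 and 32.7 CPM in control. CREBBP had 36.2 and 30.9 CPM in shIRF4 and 30.2 and 30.7 CPM in control, with the first shIRF4 library standing above the other 3. ARID1B had 22.7 and 24.8 CPM in shIRF4 and 19 and 24.6 CPM in control, and ARID1A 17.2 and 15.7 CPM in shIRF4 and 16.7 and 17.7 CPM in control. The fitted log2 fold changes lay between -0.07 (KMT2D and TET2) and 0.16 (CREBBP). The 95% intervals were -0.15 to 0.14 for SETD2, -0.12 to 0.15 for EP300, -0.07 to 0.21 for KMT2C, -0.23 to 0.09 for KMT2D, and -0.02 to 0.34 for CREBBP. The CREBBP start was called higher only without shIRF4 replicate 2 (log2 fold change 0.25, adjusted p = 0.0140, and 0.0140 to 1.0 over 11 alternatives).

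Set against interval length, EP300 had the most open start, with 29.6 CPM per kb in shIRF4 and 29.2 CPM per kb in control. SETD2 followed with 26.5 CPM per kb in both groups, then TET2 with 24.6 in shIRF4 and 26 in control and SMARCA4 with 24.3 in shIRF4 and 22.4 in control. CREBBP, KMT2C, KMT2D and ARID1A lay close together, between 16.1 and 18.0 CPM per kb in shIRF4 and between 16.0 and 17.0 CPM per kb in control, and their order was not the same in both groups. ARID1B was lowest, with 13.3 CPM per kb in shIRF4 and 12.2 in control.

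**Figure D2:**
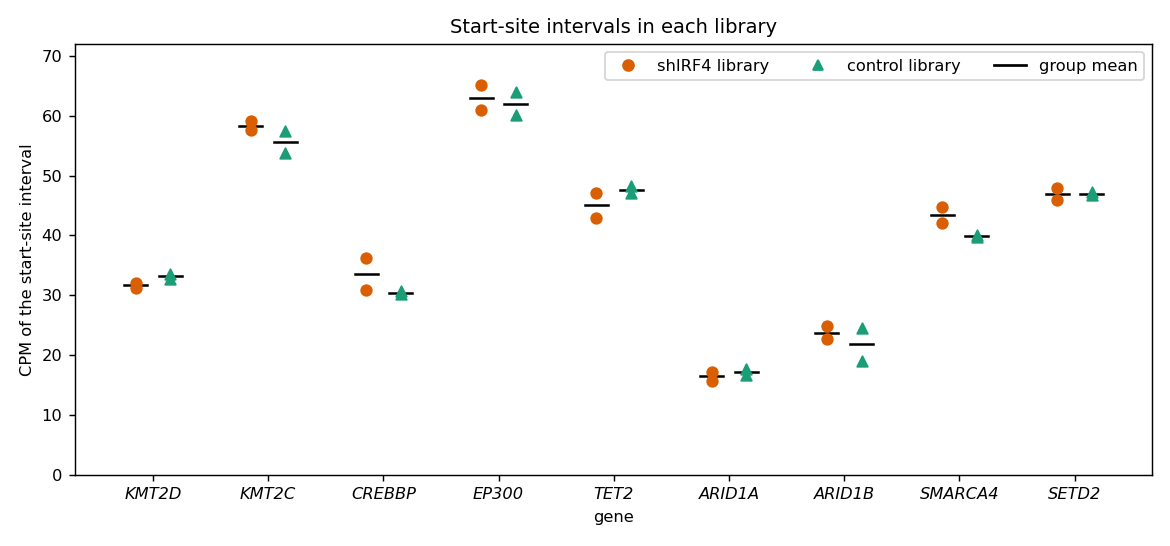
CPM of the start-site interval of each gene in each library, with shIRF4 libraries (circles) left of control libraries (triangles) and bars at the group means. The groups lie within a few CPM of each other at every gene, from 16.4 against 17.2 CPM on average at ARID1A to 63.0 against 62.0 CPM at EP300.

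Away from the starts, 14 of 64 intervals were called, which is 21.9% beside 25.0% of all intervals off start sites. Of these 64, 10 were lower (15.6%, beside 17.3%) and 4 higher (6.25%, beside 7.66%). Inside genes 6 of 46 were lower and 3 higher, and upstream or downstream of genes 4 of 18 were lower and 1 was higher. The 50 uncalled intervals off the starts ranged from -0.50 to 0.53 in log2 fold change. Their mean level ran from 2.45 to 89.2 CPM and had a median of 5.37 CPM. That of the called ones ran from 1.99 to 14.9 CPM, and the falling sites of ARID1B at 1.99 CPM and TET2 at 2.13 CPM lay below all uncalled ones. Falls of 2-fold or more were found at 3 intervals, and no interval rose by as much. In the whole series 3.91% of intervals fell and 1.12% rose at least 2-fold.

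**Figure D3:**
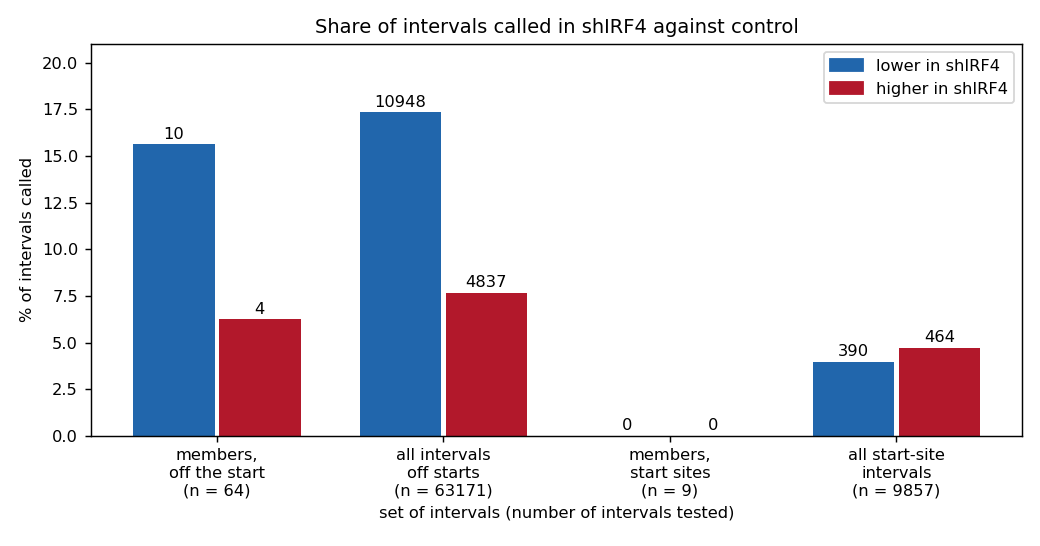
Share of intervals called lower or higher in shIRF4, in %, with the number called above each bar. The 64 intervals off the starts of the 9 genes (10 lower, 4 higher) stand beside all intervals off starts, and the 9 start-site intervals (0 called) beside all start-site intervals (390 lower, 464 higher).

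The H3K4 methyltransferase genes had 1 lower and 1 higher among 11 intervals (18.2% called, near the 22.8% of all intervals), both at KMT2C. KMT2D (chr12:49018978-49060794, minus strand) had 0 of 4 intervals called by edgeR, 0 with an unadjusted p under 0.05 and 0 called by DESeq2. Its 3 intervals inside the gene had log2 fold changes of -0.05, 0.02 and 0.21. The last of these, 4636 bp inside the gene, had 10.7 and 10.3 CPM in shIRF4 and 9.65 and 8.56 CPM in control, and missed the threshold (edgeR, adjusted p = 0.270). KMT2D lies among 111 other tested intervals within 1 Mb, of which 11 were lower (9.91%) and 3 higher (2.7%). Over all intervals 15.5% were lower and 7.26% higher.

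KMT2C (chr7:152134925-152436003, minus strand) had a rise and a fall of like size. An interval 23932 bp upstream of the start (chr7:152459635-152460235) had 12.3 and 11.5 CPM in shIRF4 and 5.87 and 6.17 CPM in control. The groups stood far apart, and the log2 fold change was 0.99 (SE 0.14, adjusted p = 1.74e-05, edgeR). An interval 145474 bp inside the gene (chr7:152290302-152290756) had 4.94 and 5.02 CPM in shIRF4 and 11.2 and 8.78 CPM in control. It fell by 1.00 on the log2 scale (SE 0.16, adjusted p = 9.41e-05, edgeR). The most open interval of all 72 lies only 3132 bases beyond the rising one, at chr7:152463368-152465068. It had 93.6 and 84.0 CPM in shIRF4 and 87.8 and 91.4 CPM in control, and its 95% interval was -0.14 to 0.12 on the log2 scale.

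Both KMT2C calls held without each library in turn and in DESeq2. The fall was not called against a 1.5-fold change (adjusted p = 0.0570, with 2.37e-06 to 0.0570 over 11 alternatives). Of the 52 other intervals within 1 Mb of KMT2C, 7 were higher (13.5%, beside 7.26% of all intervals) and 1 was lower (1.92%, beside 15.5%). Their median log2 fold change was 0.10. No other protein-coding gene lies within 100 kb of either site, the nearest being GALNT11, 168189 bp from the falling site, and XRCC2, 184841 bp from the rising site.

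Among the acetyltransferase genes, EP300 (chr22:41092592-41180077, plus strand) had 2 intervals, neither inside the gene body by its midpoint. Besides the start, an interval 23352 bp upstream had 7.98 and 9.93 CPM in shIRF4 and 8.47 and 9.23 CPM in control. Of the 2, 0 were called by edgeR, 0 had an unadjusted p under 0.05 and 0 were called by DESeq2. The 134 other intervals within 1 Mb of EP300 held 15 lower (11.2%, beside 15.5% of all intervals) and 17 higher ones (12.7%, beside 7.26%).

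CREBBP (chr16:3725054-3880713, minus strand) had 13 intervals, all inside the gene. Of these, 10 had a positive log2 fold change, while 35532 of all 73028 intervals tested had a negative one. The median over all 13 was 0.25 (0.01 over all intervals tested), and 1 was called higher. That interval, 61348 bp inside the gene (chr16:3819252-3819478), had 5.21 and 3.60 CPM in shIRF4 and 3.27 and 2.68 CPM in control (log2 fold change 0.65, SE 0.22, adjusted p = 0.0403, edgeR). Another interval, 92614 bp inside the gene (chr16:3787669-3788530), had 13.7 and 11.8 CPM in shIRF4 and 17.0 CPM in both control libraries. It fell by 0.39 on the log2 scale (SE 0.11, adjusted p = 0.0127, edgeR). The direct neighbour of the rising interval, 112 bases away, was not called, at 4.60 ± 0.0228 CPM in shIRF4 and 4.11 ± 0.125 CPM in control (SD, n = 2 each).

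Both CREBBP calls were lost when certain single libraries were left out, and neither was made by DESeq2. Leaving out control replicate 1 (adjusted p = 0.0595), control replicate 2 (0.293) or shIRF4 replicate 1 (log2 fold change 0.29, adjusted p = 0.591) ended the call of the rise, and its adjusted p ran from 0.00538 to 1.0 over 11 alternatives. The call of the fall was lost without either control library, though its size hardly moved. Its log2 fold change was -0.40 without control replicate 1 and -0.40 without control replicate 2, against -0.39 with all libraries. Its adjusted p (edgeR or DESeq2) ran from 0.00712 to 1.0 over 11 alternatives.

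TET2 (chr4:105145875-105279803, plus strand) lost a small site in its body. The interval, 175 bp long and 49025 bp downstream of the start (chr4:105194813-105194987), had 18 and 10 reads in the shIRF4 libraries and 37 and 45 reads in the control libraries. That is 0.977 and 1.09 CPM in shIRF4 and 3.10 and 3.35 CPM in control, groups that lie well apart. The log2 fold change was -1.66 (SE 0.27, 95% interval -2.23 to -1.10, adjusted p = 9.68e-05, edgeR), a level 3.16-fold lower in shIRF4. The antisense transcript gene TET2-AS1 also spans the site. Its neighbours, 2650 bases before and 1583 bases after it, had log2 fold changes of 0.12 and -0.07 and were not called.

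No other TET2 interval was called. The 2 sites 125500 and 130828 bp inside the gene had the largest positive values, 0.53 (adjusted p = 0.0749) and 0.45 (adjusted p = 0.0734, edgeR). Without shIRF4 replicate 2 they were called higher, at 0.65 (adjusted p = 0.0202) and 0.61 (adjusted p = 0.00695), and with libraries scaled by their totals only they were called at 0.58 and 0.50. The fall at 49025 bp was called in all 11 alternatives, between -1.72 and -1.55. Within 1 Mb of TET2, 6 of 28 other intervals were lower (21.4%, beside 15.5% of all intervals) and 1 was higher (3.57%, beside 7.26%).

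In the SWI/SNF genes, 4 of 32 intervals were lower and 2 higher (18.8% called, near the 22.8% of all intervals). All 4 lower ones were at ARID1B. ARID1A (chr1:26696015-26782104, plus strand) had a site 48286 bp inside the gene (chr1:26744051-26744552) with 11.6 and 11.2 CPM in shIRF4 and 8.22 and 6.10 CPM in control. It rose by 0.69 on the log2 scale (SE 0.15, adjusted p = 0.00143, edgeR). The gene's other interval, 1084 bp inside, had 6.68 and 6.65 CPM in shIRF4 and 6.54 and 6.32 CPM in control and was not called. The rise was not called without control replicate 2 (log2 fold change 0.48, adjusted p = 0.0767) or in DESeq2 (0.68, adjusted p = 0.0752), with adjusted p from 0.00016 to 0.908 over 11 alternatives.

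ARID1B (chr6:156776026-157210779, plus strand), the longest of the genes, held the largest fold change of all 72 intervals. A 245 bp interval 291574 bp inside the gene (chr6:157068830-157069074) had 9 and 6 reads in the shIRF4 libraries and 43 reads in each control library. Its level was 0.489 and 0.655 CPM in shIRF4 and 3.61 and 3.20 CPM in control. The log2 fold change was -2.62 (SE 0.31, 95% interval -3.27 to -1.97, adjusted p = 1.95e-06, edgeR), a level 6.14-fold lower in shIRF4. It was called in all 11 alternatives, between -2.78 and -2.34. The strongest interval in the gene body, 244274 bp from the start, was not called, with 27.0 and 21.1 CPM in shIRF4 on either side of 23.9 and 23.7 CPM in control.

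A pair of intervals beyond the end of ARID1B, 131 bases apart, fell by like amounts. The first (chr6:157222575-157224056), 12536 bp past the gene, had 14 and 10.8 CPM in shIRF4 and 17.5 and 17.1 CPM in control. Its log2 fold change was -0.44 (SE 0.12, adjusted p = 0.00918, edgeR). The second (chr6:157224188-157225018) had 12.3 and 9.38 CPM in shIRF4 and 15.7 and 15.0 CPM in control (-0.46, SE 0.12, adjusted p = 0.00989, edgeR). In both, the second shIRF4 library was the lowest of all libraries. The next protein-coding gene, TMEM242, lies 65709 and 64422 bp away. The second was not called without control replicate 1 (adjusted p = 0.0531, with 0.00221 to 1.0 over 11 alternatives), and neither was called by DESeq2 (adjusted p = 0.205 and 0.208).

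The fourth fall at ARID1B lay 9198 bp upstream of the start (chr6:156767943-156768416), with 3.64 and 2.73 CPM in shIRF4 and 4.95 and 5.13 CPM in control (-0.60, SE 0.20, adjusted p = 0.0356, edgeR). Leaving out control replicate 1, control replicate 2 or shIRF4 replicate 2 ended the call (adjusted p = 0.109, 0.170 and 0.0920), and its adjusted p ran from 0.0296 to 1.0 over 11 alternatives. Of the 22 ARID1B intervals 14 had a negative log2 fold change, beside 35532 of all 73028 intervals tested, and the median was -0.19. The sum over the gene body alone had a log2 fold change of -0.02 (adjusted p = 0.835, edgeR over gene sums). Around the gene, 22 other intervals within 1 Mb had a median of -0.05. Of these, 4 were lower (18.2%, beside 15.5% of all intervals) and 2 higher (9.09%, beside 7.26%).

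SMARCA4 (chr19:10961030-11062273, plus strand) had 3 strong intervals, the start and 2 inside the gene, none of them called. The interval at 60708 bp had 51.5 and 50 CPM in shIRF4 and 50.7 and 58.3 CPM in control, and that at 74774 bp had 51.0 and 46.8 CPM in shIRF4 and 52.3 and 51.3 CPM in control. The only called interval was weak and lay 89358 bp inside the gene (chr19:11050065-11050711). It had 4.61 and 5.78 CPM in shIRF4 and 2.68 and 3.72 CPM in control (log2 fold change 0.64, SE 0.22, adjusted p = 0.0352, edgeR). An interval 157 bases before it did not change detectably, with 19.5 and 19 CPM in shIRF4 and 20.2 and 19.2 CPM in control. Leaving out control replicate 1 (0.44, adjusted p = 0.329) or shIRF4 replicate 2 (0.51, adjusted p = 0.0938) ended the call, as did DESeq2 (0.326), with 0.0133 to 1.0 over 11 alternatives.

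SETD2 (chr3:47016436-47164840, minus strand) had the clearest loss of the set. An interval 11737 bp upstream of the start (chr3:47175543-47176157), inside the antisense transcript gene KIF9-AS1, had 3.31 and 4.36 CPM in shIRF4 and 17.1 and 14.1 CPM in control. Both control libraries stood more than 9 CPM above both shIRF4 libraries. The log2 fold change was -2.07 (SE 0.16, 95% interval -2.41 to -1.74, adjusted p = 5.91e-09, edgeR), a level 4.21-fold lower in shIRF4. The start of the gene, 10629 bases from this interval, was not called, as given above. The fall was called in all 11 alternatives, between -2.23 and -1.82. KIF9, the next protein-coding gene on the other side, lies 52148 bp from it.

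Inside SETD2, weaker intervals 50242 and 80036 bp from the start were also lower. The first had 2.12 and 3.38 CPM in shIRF4 and 3.86 and 4.24 CPM in control (-0.67, SE 0.24, adjusted p = 0.0452, edgeR). The second had 2.17 and 3.16 CPM in shIRF4 and 3.94 CPM in both control libraries (-0.65, SE 0.23, adjusted p = 0.0465, edgeR). The first shIRF4 library was the lowest in both. Without it the values were -0.25 (adjusted p = 0.630) and -0.31 (adjusted p = 0.553). Neither was called without control replicate 1 (0.0843 and 0.15), without control replicate 2 (0.217 and 0.162) or in DESeq2 (0.524 and 0.526), and adjusted p ran from 0.00562 to 1.0 and from 0.0104 to 1.0 over 11 alternatives. Of 93 other intervals within 1 Mb of SETD2, 10 were lower (10.8%, beside 15.5% of all intervals) and 6 higher (6.45%, beside 7.26%). Their median was 0.03.

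**Figure D4:**
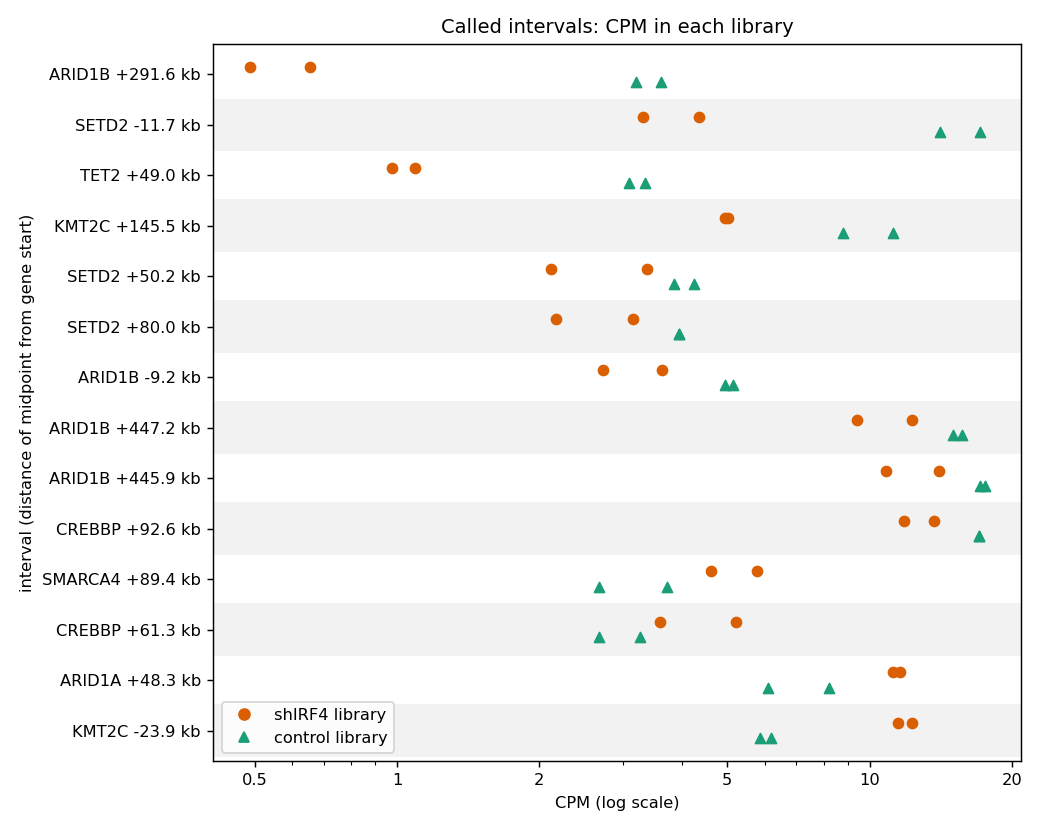
CPM on a log axis in each library for the 14 called intervals, ordered by log2 fold change, with shIRF4 libraries (circles) above control libraries (triangles) and the distance of the midpoint from the gene start in kb. The 2 groups of each called interval lie apart, as selection by a small p favours. Groups also lie apart at many uncalled intervals, such as that 4636 bp inside KMT2D, so lying apart does not mark a called interval. Among the called ones they are farthest apart for ARID1B at 291574 bp (0.489 and 0.655 against 3.61 and 3.20 CPM) and for SETD2 at 11737 bp upstream.

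Summed over all intervals of a gene, accessibility changed at 2 of the 9 genes, 1 lower and 1 higher, beside 20.1% of 16119 genes tested (13.4% lower, 6.74% higher). SETD2 fell to 58.8 and 64.9 CPM in shIRF4, against 80.4 and 76.7 CPM in control (log2 fold change -0.35, SE 0.06, adjusted p = 0.000511, edgeR over gene sums). The sum over the gene body alone, without the upstream site, was -0.09 (adjusted p = 0.309). ARID1A had 20 and 19.8 CPM in shIRF4 and 16.4 and 13.8 CPM in control (0.40, SE 0.11, adjusted p = 0.0131). Its sum holds 2 intervals and not the start, and the call was lost when control replicate 2 was left out (0.28, adjusted p = 0.209) and under DESeq2 (0.206), with adjusted p from 0.00164 to 0.209 over 11 alternatives.

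The other 7 sums did not pass. ARID1B had 180 and 163 CPM in shIRF4 and 187 and 195 CPM in control (-0.15, adjusted p = 0.0598), and it was called lower without shIRF4 replicate 1 (-0.23, adjusted p = 1.95e-05). CREBBP (0.08, adjusted p = 0.303) was called higher without shIRF4 replicate 2 (0.14, adjusted p = 0.0135), and TET2 (-0.02, adjusted p = 0.888) was called lower without shIRF4 replicate 1 (-0.15, adjusted p = 0.0493). For KMT2D, KMT2C and SMARCA4 the log2 fold changes of the sums were -0.02, 0.02 and -0.04. The 95% interval of EP300 was -0.12 to 0.12.

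**Figure D5:**
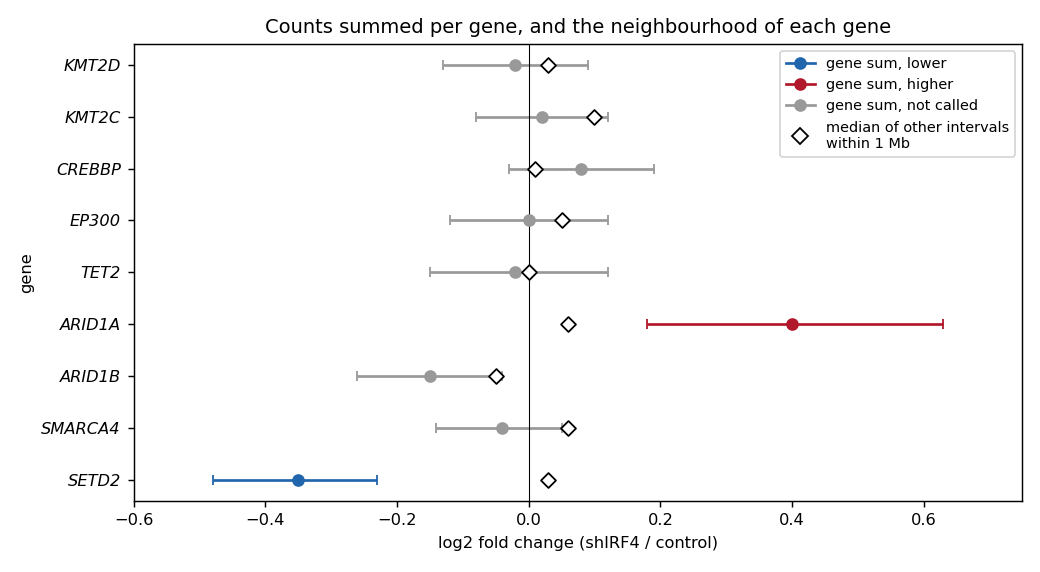
Log2 fold change (shIRF4 over control) of the counts summed per gene with 95% intervals, and as white diamonds the median over all other tested intervals within 1 Mb. SETD2 at -0.35 and ARID1A at 0.40 are the called sums, beside medians of 0.03 and 0.06. A sum gives deep intervals more weight and a median does not, and their difference was not tested.

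Other genes of the same machinery were taken as a list of 64 genes with 415 intervals. Of these, 69 were lower, 31 higher and 315 not called, so that 24.1% were called, beside 22.8% of all intervals, and the median log2 fold change was 0.01. At their 59 start-site intervals edgeR called 0 lower and 3 higher, beside 3.96% lower and 4.71% higher over all start-site intervals. In either direction 10 of the 59 had an unadjusted p under 0.05, and DESeq2 called 0.

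By role, the COMPASS genes of H3K4 methylation had 4 lower and 4 higher intervals among 44 (18.2% called, beside 22.8% of all intervals). WDR5, a core subunit, had 2 of each among 12 intervals, beside 15.5% lower and 7.26% higher over all intervals. The fall in its body reached 7.18 ± 0.640 CPM in shIRF4, against 12.3 ± 0.0401 CPM in control (-0.80, SE 0.13, adjusted p = 0.000126, SD, n = 2 each, edgeR). Histone acetyltransferase genes had 10 lower and 2 higher among 51 (23.5% called, near the share of all intervals). KAT6B, an acetyltransferase of histone H3, held 5 of the lower ones among its 11 intervals. An interval in its body fell to 15.0 ± 0.757 CPM in shIRF4, against 28.9 ± 2.85 CPM in control (-0.93, SE 0.10). The higher ones were at NCOA3, a nuclear receptor coactivator gene, and at KAT5, the acetyltransferase of the TIP60 complex. The KAT5 interval, at its start, had 45.9 and 43.6 CPM in shIRF4 and 36.7 and 37.2 CPM in control (0.28, SE 0.07).

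Deacetylase and corepressor genes, whose products oppose CREBBP and EP300, were the only role group with more higher (18) than lower (13) intervals among 91. In this group 34.1% were called, beside 22.8% of all intervals, and its difference from the other groups was not tested. HDAC4, a class IIa deacetylase, held 4 higher and 3 lower ones among 19. Genes of DNA methylation had 8 lower and 3 higher among 57 (19.3% called). TET3, a paralog of TET2, had 6 lower and 1 higher among 18 (largest fall -0.63, SE 0.12). DNMT3A, a de novo DNA methyltransferase, had 1 higher and 0 lower among 17 (0.49, SE 0.11). Over all intervals 15.5% were lower and 7.26% higher.

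Other SWI/SNF subunit genes had 25 lower and 4 higher among 130 (22.3% called, near the 22.8% of all intervals). SMARCA2, the ATPase that can take the place of SMARCA4, had 7 lower and 1 higher among 27. Its largest fall, 6941 bp outside the gene, was to 8.52 and 11.6 CPM in shIRF4, against 17.4 and 15.4 CPM in control (-0.76, SE 0.13, adjusted p = 0.000189). BCL7A, a subunit gene that is itself mutated in lymphoma, had 5 lower and 0 higher among 10. SMARCE1 had 4 lower and 2 higher among 12. These single genes, picked after their counts were seen, stand beside 15.5% lower and 7.26% higher over all intervals. Genes of H3K36 methylation had 9 lower and 0 higher among 42 (21.4% called, also near the 22.8% of all intervals). Of the 42, 13 had an unadjusted p under 0.05 in either direction, and DESeq2 called 1. KDM2A, an H3K36 demethylase, had a site 5916 bp outside the gene with 7.38 and 6.55 CPM in shIRF4 and 13.4 and 12.6 CPM in control (-0.88, SE 0.13, adjusted p = 3.78e-05).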

How the data were processed

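Counts over a shared set of merged peaks were deposited without normalization. Per the file headers, the authors used featureCounts 2.0.0 on reads reduced to their 5' end, ignored marked duplicates and asked for fractional multi-mapping reads, though all values are whole. Dropping duplicates can lower counts more in a deeper library. Coordinates are hg38 per the submitters' notes. The aligner, peak caller and any shift for the transposase's offset are not given in the sources used here. The labels' titles set the groups; library names say siIRF4 where titles say shIRF4.

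Counts were fitted over all intervals with edgeR 4.0.16 in R 4.3.3: filterByExpr (73028 of 73135 intervals kept), TMM factors of 0.981 to 1.03, estimateDisp, glmQLFit (legacy=FALSE, robust=FALSE) and a two-sided quasi-likelihood F-test with the group as the only term, adjusted by Benjamini and Hochberg. CPM use TMM-scaled library sizes. SE is the log2 fold change divided by the square root of F, and 95% intervals use the t distribution with the fit's degrees of freedom. Gene sums were fitted over 16119 genes in the same way. The procedure was tested on simulated data. DESeq2 1.42.0 and other settings served as alternatives.

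The chi-square per degree of freedom between libraries was 2.01 for the shIRF4 pair and 1.04 for the control pair, near the 1 of sampling noise. Each library was kept as a replicate. Distances run from the start that the RefSeq promoter table gives, which for ARID1B and SETD2 lies inside the gene's outer bounds. Gene positions, starts and promoters came from RefSeq (GRCh38.p14); 2 TET2 intervals lie in overlapping gene bodies and went to the gene with the nearest end. The named intervals are, per gene, those within 1 kb of a gene end, with the smallest p, with the highest CPM and with the largest called rise and fall. All other called intervals and start sites were named after their values were seen, as were single uncalled ones. For the other chromatin genes the largest called rise and fall per role at or above median abundance were named; counts for single genes there were picked after they were seen. A result that this rule names is not reported here. The members and lists were chosen with earlier results of these data known.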

Additional observations from a re-analysis of the deposited data

How the results depend on the processing

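The largest falls (ARID1B at 291574 bp, SETD2 upstream, TET2 at 49025 bp) and the KMT2C rise kept their direction and call in all 11 alternatives tried, and no called interval changed sign in any. The KMT2C fall was lost only against a 1.5-fold change, and the other 9 calls were each lost under 2 or more alternatives. Of 10 lower and 4 higher intervals, DESeq2 called 4 and 1, a test against a 1.5-fold change 3 and 1, and leaving out a library gave 5 to 10 lower and 2 to 8 higher. Library totals only gave 8 higher, and intervals inside gene bodies only gave 6 lower. Of the 28 named intervals 14 were called, 5 in DESeq2, 4 against a 1.5-fold change and 7 to 13 with a library left out. Of the 9 gene sums 2 were called, 1 in DESeq2, 1 over gene bodies only and 1 to 4 with a library left out. For the other chromatin genes (69 lower, 31 higher), DESeq2 called 19 and 6 and leaving out a library gave 36 to 82 and 13 to 47. A test against a 1.5-fold change (edgeR glmTreat) called 12 lower and 0 higher, with 11 higher at an unadjusted p under 0.05, and gene bodies only gave 42 lower. For the falls and rises lost in DESeq2 the cause was not tested, and a stricter null calls less by construction. Replicate numbers are shared between the groups. Deviations of same-numbered libraries did not correlate (r = -0.0262), which cannot tell whether such libraries were prepared as pairs. With the replicate block 8 member intervals were lower and 3 higher, 66 and 32 of the other chromatin genes', and 11 named intervals and 2 gene sums were called. Counting the control pair as 1 sample, an alternative chosen after seeing the data, gave 7 lower and 3 higher. Among named intervals, 12 values called in neither setting changed sign. Depth limits sites of few reads, such as the ARID1B site with 9 and 6 reads in shIRF4.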
